A study of Mus musculus with 12 samples.

Results

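The genes described are 10 by which myeloid cells sense microbial products: the Toll-like receptor genes Tlr1, Tlr2, Tlr4, Tlr6, Tlr7, Tlr8, Tlr9 and Tlr13 and the lipopolysaccharide (LPS) co-receptor genes Cd14 and Ly96. They were chosen by gene symbol, with the brightest transcript cluster (the array's unit for a transcribed locus) of each symbol, out of 65956 clusters on the array. All 10 had 1 cluster and all 10 were bright enough to be tested. RNA came from monocytes and macrophages that had been isolated with magnetic beads from mouse bone marrow, and each mouse gave 1 array. The groups were mice with MEC1 at 21 days (3 mice aged 11 weeks), mice without MEC1 at 21 days (3, aged 11 weeks), mice with MEC1 at 31 days (3, aged 13 weeks) and mice without MEC1 at 31 days (3, aged 13 weeks). MEC1 is an established human cell line from chronic lymphocytic leukemia, a B cell malignancy, and was given by intravenous injection. Every mouse, with or without MEC1, was of the strain Rag2-/-gamma c-/- with BALB/c as background strain. Such hosts lack mature lymphocytes and natural killer cells of their own and keep their myeloid cells, in all groups alike. The model is therefore 1 human line in hosts with no adaptive immunity, 21 days standing for early and 31 days for late disease.

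Toll-like receptors span the membrane, bind microbial ligands on the outer or luminal side and signal inside through a domain shared with the interleukin 1 receptor. Tlr2, paired with Tlr1 or Tlr6, binds bacterial lipopeptides at the cell surface, and Tlr4 binds LPS there together with Ly96 (also called MD-2), to which Cd14 hands the LPS. In mice Tlr7 and Tlr8 lie in endosomes and are tied to the sensing of single-stranded RNA, although the role of mouse Tlr8 is less settled; Tlr9 senses unmethylated CpG DNA and Tlr13 bacterial ribosomal RNA, also in endosomes. The endosomal receptors need the chaperone Unc93b1 to reach their compartment. Monocytes and macrophages are a main site of expression of these genes. In bulk RNA of this kind, fewer cells of a type and less RNA per cell cannot be told apart.

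Arrays of mice with MEC1 differed as a whole from those without. The 4 bacterial hybridisation controls spiked into the samples averaged 11.80 to 12.04 with MEC1 against 10.71 to 10.87 without at 21 days, and 12.15 to 13.18 with MEC1 against 10.47 to 10.70 without at 31 days, on the log2 intensity scale. MEC1 31 d replicate 3 was the highest at 13.18. Array medians ran from 3.93 to 4.40 with MEC1 and from 3.80 to 3.93 without. Clusters of middle and high level had lower values with MEC1 in general, so the changes of the 10 genes are set beside the median change at their level, that of all tested clusters whose level without MEC1 lay within 0.5 log2 units of the gene's own. A gene was called at an adjusted p under 0.05 (limma, Benjamini-Hochberg over all 37240 tested clusters).

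In mice with MEC1, 3 of the 10 genes fell at 21 days (Tlr7, Tlr8 and Cd14). At 31 days 4 fell (Tlr7, Tlr8, Tlr9 and Tlr13, the endosomal receptors among the 10). None rose on either day. Of all tested clusters, 4.34% were called at 21 days (2.51% lower and 1.83% higher) and 43.8% at 31 days (21.1% lower and 22.6% higher), so 3 of 10 lower at 21 days stood well above the background share and 4 of 10 at 31 days was nearer to it. The median change of the 10 genes was -1.11 at 21 days and -0.89 at 31 days, against 0.02 and 0.04 for all tested clusters. Those medians and called shares cover many dim clusters with higher values with MEC1, and the shares were not matched for level. Of the 18107 tested clusters assigned to chromosomes other than X, 3.39% were called lower at 21 days and 29.9% at 31 days. At the levels of the 10 genes the medians were -0.14 to -0.41 at 21 days and -0.25 to -1.01 at 31 days, a range that holds the 31-day median of the 10 genes. Averaged over both days, which sets 6 mice with MEC1 against 6 without, 8 genes fell and Tlr1 and Tlr4 did not pass, where 48.3% of all clusters were called (23.3% lower and 24.9% higher). The calls depended on how the arrays were scaled. With the level of the hybridisation controls as a term in the model none of the 10 passed on either day or over both (limma), and the part of that level in the changes was not tested further, since it cannot be told apart from MEC1. Without MEC1 31 d replicate 3 the same 4 endosomal receptors passed at 31 days (log2 changes of -1.52, -1.05, -1.04 and -1.02 for Tlr7, Tlr8, Tlr9 and Tlr13), and none did when the remaining arrays were quantile normalized as well.

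**Figure D1:**
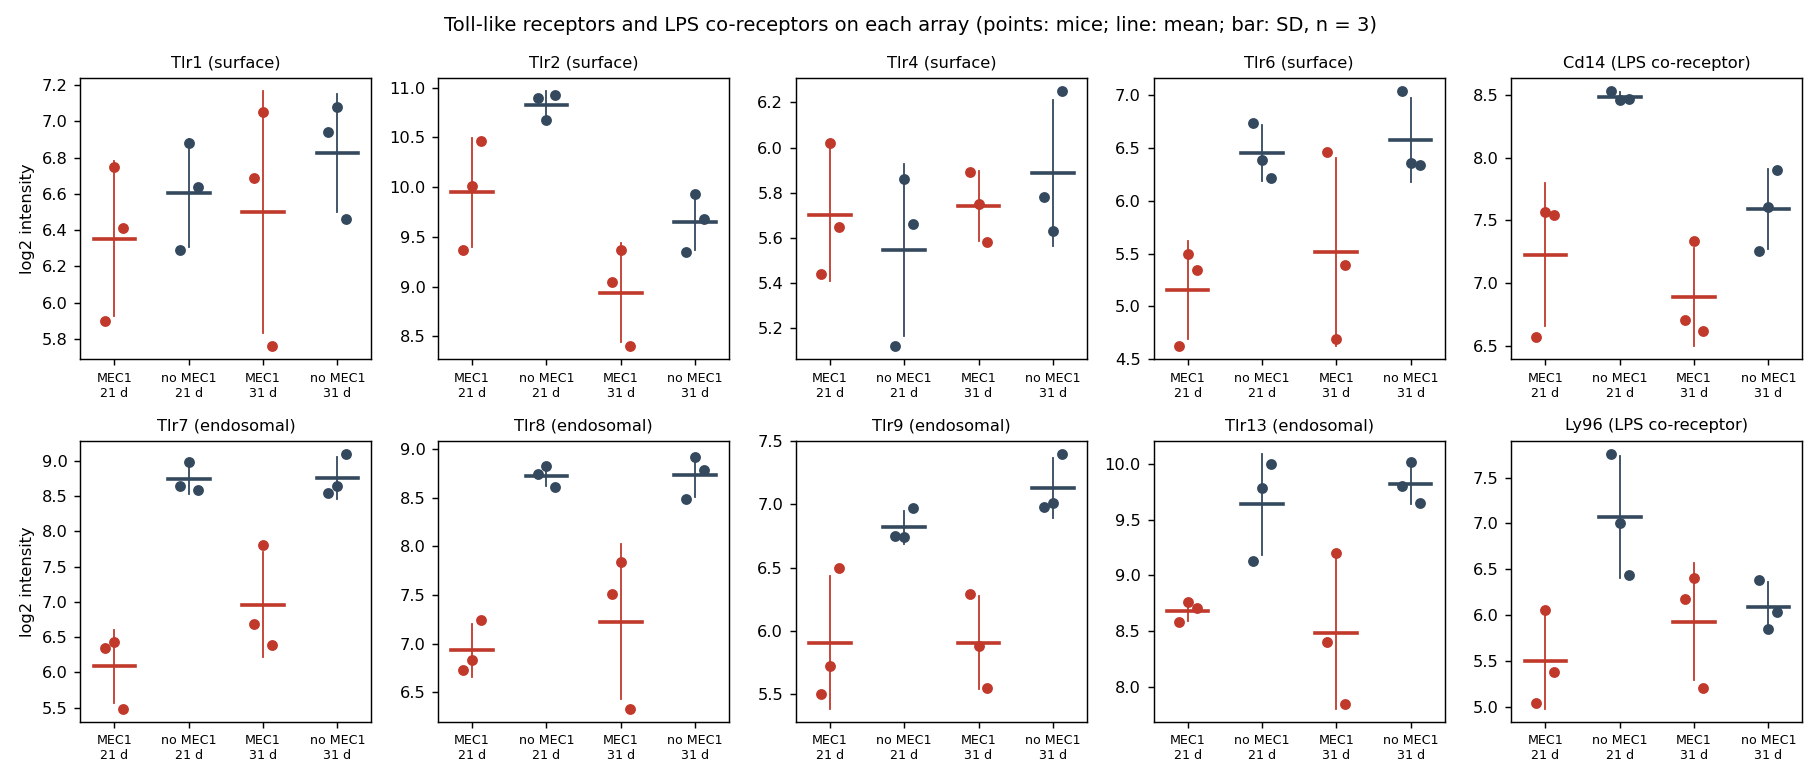
Log2 intensity of the 10 genes on the 12 arrays, by group (red, with MEC1; dark blue, without), with points for mice, a line for the group mean and a bar for the SD (n = 3). Tlr7 and Tlr8 with MEC1 lie below every mouse without MEC1 on both days, while the groups overlap for Tlr1 and Tlr4.

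Tlr7 had the largest change of the 10 genes on both days. Its log2 intensity was 6.34, 6.43 and 5.48 in mice with MEC1 at 21 days, against 8.65, 8.99 and 8.59 without. At 31 days the values were 6.68, 7.80 and 6.39 with MEC1 and 8.54, 8.64 and 9.10 without. The groups did not overlap on either day, and the 31-day mouse at 7.80 lay closest to the mice without MEC1. Tlr7 fell by 2.66 on the log2 scale at 21 days (SE 0.361, limma adjusted p = 0.00547), which is 6.32-fold lower, and fell by 1.80 at 31 days (SE 0.361, adjusted p = 0.00383), 3.49-fold lower. Clusters of its level had median changes of -0.41 and -0.92, and 0.38% of them at 21 days and 13.4% at 31 days had a more negative change than Tlr7. At 31 days its change was thus inside the bulk of clusters of that brightness, and at 21 days it was near their lower end.

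Tlr8, whose gene lies beside Tlr7 on the X chromosome, had the next largest change among the endosomal receptors. It stood at 6.73, 6.83 and 7.24 in mice with MEC1 at 21 days and at 8.74, 8.83 and 8.61 without. The 31-day values were 7.51, 7.84 and 6.33 with MEC1 and 8.49, 8.92 and 8.78 without. All 6 mice with MEC1 lay below all mice without MEC1, with MEC1 31 d replicate 3 the lowest. Tlr8 fell by 1.79 at 21 days (SE 0.325, limma adjusted p = 0.0181) and fell by 1.50 at 31 days (SE 0.325, adjusted p = 0.00536). The medians at its level were -0.40 and -0.91. With quantile normalization the 31-day change was -0.93 (adjusted p = 0.0312). The 21-day call was lost when MEC1 21 d replicates 1 or 2 or the 21-day replicates 2 or 3 without MEC1 were left out (adjusted p = 0.0738, 0.0691, 0.062 and 0.0559), with log2 changes of -1.69 to -1.85.

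Tlr13 had 8.58, 8.76 and 8.71 in mice with MEC1 at 21 days, against 9.13, 9.78 and 10.00 without. Mice with MEC1 at 31 days had 8.40, 9.20 and 7.85, against 9.80, 10.02 and 9.65 without. No value with MEC1 reached the lowest without on the same day. It fell at 31 days by 1.34 (SE 0.315, limma adjusted p = 0.00781), beside a median of -0.98 at its level, and the 21-day change of -0.95 did not pass (adjusted p = 0.108; median at its level -0.37). Quantile normalization ended the 31-day call, with a change of -0.68 and an adjusted p of 0.0761.

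Tlr9, the CpG DNA receptor, had 5.50, 5.72 and 6.50 with MEC1 at 21 days, against 6.75, 6.74 and 6.97 without. The 31-day values were 6.29, 5.88 and 5.55 with MEC1 and 6.98, 7.01 and 7.40 without. The groups were apart on both days, most narrowly at 21 days, where 6.50 with MEC1 stood next to 6.74 without. Tlr9 fell at 31 days by 1.22 (SE 0.267, limma adjusted p = 0.00565), with a median of -0.61 at its level, and the change of -0.91 at 21 days did not pass (adjusted p = 0.0789; median at its level -0.32).

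Promoter sequences of endosomal receptors are shown because these genes were lower together. RefSeq windows (build GRCm38.p6) matched 6 of the 10 genes: Tlr1, Tlr2, Tlr6, Tlr8, Tlr9 and Tlr13. No window was available for Tlr7, Tlr4, Cd14 and Ly96. For Tlr8, Tlr9 and Tlr13 the window starts at the outermost annotated start of the gene, and the 250 bases before that start are printed 5′ to 3′ on the gene's strand. Capitals mark the core of the binding motif of PU.1, a transcription factor of the myeloid lineage, searched as GAGGAA on both strands (TTCCTC on the other).
Tlr8, chrX:167264330-167264579, minus strand: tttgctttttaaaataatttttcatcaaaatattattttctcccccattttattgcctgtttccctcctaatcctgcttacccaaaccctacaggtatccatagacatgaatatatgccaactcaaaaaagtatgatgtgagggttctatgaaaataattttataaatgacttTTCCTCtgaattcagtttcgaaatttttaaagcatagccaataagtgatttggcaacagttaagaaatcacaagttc
Tlr13, chrX:106143025-106143274, plus strand: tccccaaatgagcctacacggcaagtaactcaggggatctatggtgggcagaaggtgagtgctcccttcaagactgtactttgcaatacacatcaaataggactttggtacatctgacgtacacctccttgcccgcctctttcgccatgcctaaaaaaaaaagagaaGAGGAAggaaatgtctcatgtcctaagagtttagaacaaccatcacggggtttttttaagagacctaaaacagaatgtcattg
Tlr9, chr9:106222348-106222597, plus strand: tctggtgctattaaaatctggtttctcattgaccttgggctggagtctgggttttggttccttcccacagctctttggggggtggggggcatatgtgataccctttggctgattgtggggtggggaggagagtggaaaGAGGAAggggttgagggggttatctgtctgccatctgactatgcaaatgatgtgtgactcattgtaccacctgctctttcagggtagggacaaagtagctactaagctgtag
Each of the 3 holds 1 match, with its first base at positions -77, -83 and -112 from the start in Tlr8, Tlr13 and Tlr9. Among all 27025 promoters searched over the same 250 bases, 23.1% hold at least 1. Tlr1, which did not pass on either day, also has a match (position -23) in 1 of its 2 windows, and the windows of Tlr2 and Tlr6 have none. The NF-kB motif was searched as GGG and CC with 5 bases of any kind between them on both strands. It was found in the Tlr2 window and in 1 Tlr6 window and in none of the windows of Tlr8, Tlr9 and Tlr13, and 45.4% of all promoters hold it. An interferon response element, searched as GAAA followed by GAAA with 2 bases of any kind between them on both strands, was found only in 1 Tlr6 window among these genes, against 3.0% of all promoters. The windows of Tlr1, Tlr2 and Tlr6 do not start at the outermost annotated start of the gene, unlike those of Tlr8, Tlr9 and Tlr13. Matches in these 2 sets are therefore from unlike positions and are not a like comparison. Tlr1 and Tlr6 also have more than 1 window each, where the share over all promoters counts 1 per gene. A match of this kind describes the letters and shows no binding.

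Among the 4 surface receptors described here no gene passed on either single day (limma, 2 of 4 at an unadjusted p under 0.05 on each day). Tlr4, the LPS receptor, had 5.44, 6.02 and 5.65 in mice with MEC1 at 21 days, against 5.12, 5.86 and 5.66 without. At 31 days its values were 5.89, 5.75 and 5.58 with MEC1 and 5.78, 5.63 and 6.25 without. The groups overlapped on both days. Its log2 change was 0.16 at 21 days (95% interval -0.37 to 0.68) and -0.15 at 31 days (-0.67 to 0.38), so that changes within those bounds could have gone unseen. The medians at its level were -0.14 and -0.25. Over both days the change was 0.005 (interval -0.37 to 0.38, adjusted p = 0.982).

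Tlr1, a partner of Tlr2, had 5.90, 6.75 and 6.41 with MEC1 at 21 days, against 6.29, 6.88 and 6.64 without, and 6.69, 7.05 and 5.76 with MEC1 at 31 days, against 6.94, 7.08 and 6.46 without. These groups overlapped as well. Its changes of -0.25 and -0.33 did not pass (limma adjusted p = 0.664 and 0.438) and were less negative than or close to the medians at its level, -0.28 and -0.52. Tlr6, the other partner of Tlr2, had 4.62, 5.50 and 5.34 with MEC1 at 21 days, against 6.74, 6.39 and 6.22 without. In the 31-day groups it had 6.46, 4.69 and 5.39 with MEC1, against 7.04, 6.36 and 6.34 without. The groups were apart at 21 days and overlapped at 31 days through the mouse at 6.46. Tlr6 changes of -1.30 (SE 0.406, adjusted p = 0.0944) and -1.07 (SE 0.406, adjusted p = 0.0529) did not pass on single days, and Tlr6 fell by 1.18 over both days (SE 0.287, adjusted p = 0.00788). The medians at its level were -0.26 at 21 days and -0.46 at 31 days. Without MEC1 31 d replicate 1, the mouse at 6.46, the 31-day change was -1.54 (adjusted p = 0.00718). Tlr1 and Tlr6 are neighbouring genes of related sequence, and how far their probes share targets was not tested.

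Tlr2 is the shared partner of Tlr1 and Tlr6. In mice with MEC1 it had 9.37, 10.01 and 10.46 at 21 days, against 10.89, 10.67 and 10.92 without. In the 31-day groups it had 9.05, 9.37 and 8.40 with MEC1, against 9.35, 9.93 and 9.68 without. The groups were apart at 21 days and overlapped at 31 days. Changes with MEC1 of -0.88 and -0.71 did not pass on single days (limma adjusted p = 0.118 and 0.0755), beside medians at its level of -0.38 and -1.01, and Tlr2 fell by 0.80 over both days (SE 0.214, adjusted p = 0.0123), close to the median of -0.72 at its level. In mice without MEC1 the 31-day level was lower than the 21-day level by a log2 change of -1.17, which did not pass over all clusters (limma adjusted p = 0.307).

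The co-receptors Cd14 and Ly96 had larger differences at 21 than at 31 days. Cd14, which passes LPS to the receptor complex, had 6.57, 7.57 and 7.54 with MEC1 at 21 days, against 8.53, 8.46 and 8.47 without. At 31 days it had 6.71, 7.34 and 6.62 with MEC1, against 7.26, 7.61 and 7.90 without. Mice with MEC1 were all below those without at 21 days, and the groups overlapped at 31 days. Cd14 fell by 1.26 at 21 days (SE 0.289, limma adjusted p = 0.0387) beside a median of -0.41 at its level, and its 31-day change of -0.70 did not pass (adjusted p = 0.0693; median at its level -0.87). The 21-day call rested on few arrays: each of 7 of the 12 arrays, when left out alone, ended it (adjusted p of 0.0542 to 0.11), as did quantile normalization (adjusted p = 0.0846), and without MEC1 21 d replicate 1 the change was -0.93.

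Ly96 encodes the secreted protein that completes the LPS binding site of Tlr4. It had 5.04, 6.06 and 5.38 with MEC1 at 21 days, against 7.76, 7.01 and 6.44 without. At 31 days it had 6.18, 6.40 and 5.20 with MEC1 and 6.38, 5.85 and 6.03 without. The groups were apart at 21 days and mixed at 31 days. The change at 21 days was -1.58 (SE 0.397) and stood at the threshold without passing (limma adjusted p = 0.0508), and that at 31 days was -0.16 (adjusted p = 0.753), beside medians at its level of -0.27 and -0.49. The 31-day minus 21-day difference of the MEC1 effect was 1.42 for Ly96 (95% interval 0.18 to 2.65), the largest of the 10 genes, with an unadjusted p of 0.0286 and an adjusted p of 0.359. None of the 10 genes passed for this difference (limma, 1 at an unadjusted p under 0.05; 0.00269% of all clusters were called, all higher), so the effects of the 2 days were not shown to differ. Both co-receptors, like Tlr2, were lower in mice without MEC1 at 31 than at 21 days, by log2 changes of -0.90 for Cd14 and -0.98 for Ly96, neither of which passed (adjusted p = 0.489 and 0.692; none of the 10 genes passed, 3 had an unadjusted p under 0.05, and 0.00806% of all clusters were called, all lower).

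**Figure D2:**
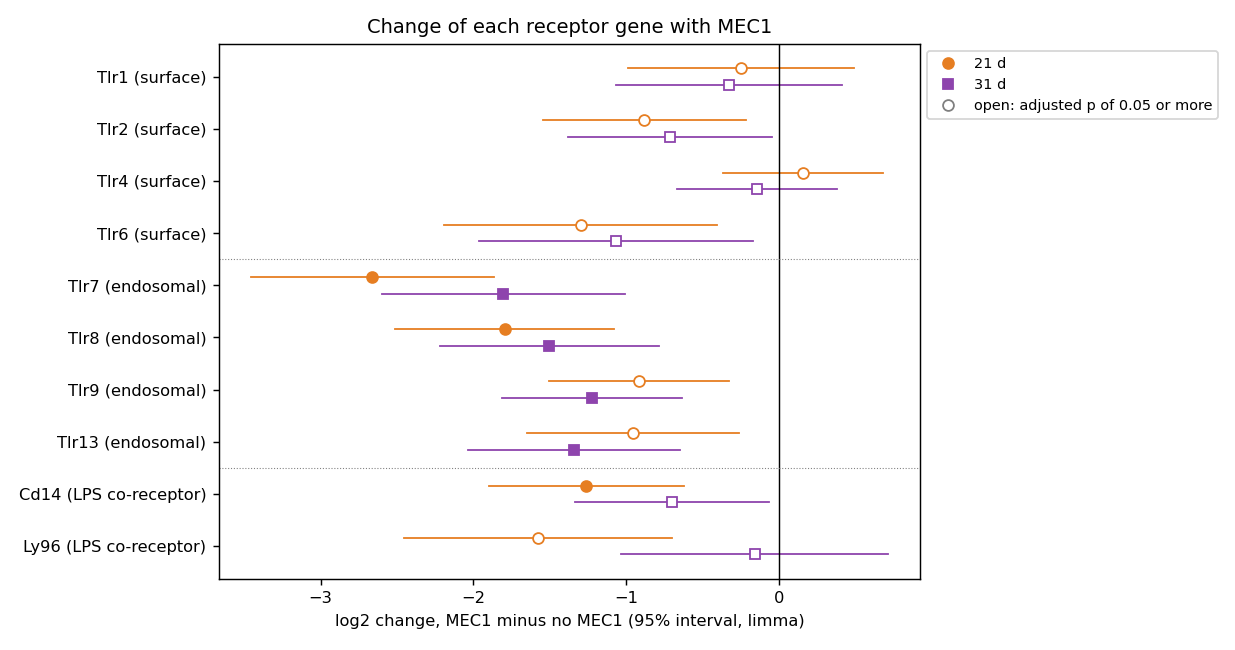
Log2 change of each gene, mice with MEC1 minus mice without, at 21 days (circles) and 31 days (squares), with 95% intervals from limma and filled symbols for an adjusted p under 0.05. All 4 endosomal receptors are filled at 31 days and no surface receptor is filled on either day.

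Groups that did not overlap, with all mice with MEC1 below all mice without, were found for 8 of the 10 genes at 21 days and 4 of 10 at 31 days. The same held for 13.7% and 28.4% of all tested clusters. No gene had all mice with MEC1 above all mice without, where 14.9% of all clusters did at 21 days and 31.2% at 31 days. At 21 days the exceptions were Tlr1 and Tlr4, and at 31 days the 4 genes were the endosomal receptors.

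To set surface against endosomal receptors, the log2 intensities of Tlr1, Tlr2, Tlr4 and Tlr6 and those of Tlr7, Tlr8, Tlr9 and Tlr13 were averaged on each array. The surface mean was 6.79 ± 0.399 with MEC1 and 7.36 ± 0.095 without at 21 days, and 6.67 ± 0.372 with MEC1 and 7.24 ± 0.0489 without at 31 days (SD, n = 3). For the endosomal receptors it was 6.90 ± 0.102 with MEC1 and 8.48 ± 0.144 without at 21 days, and 7.14 ± 0.579 with MEC1 and 8.61 ± 0.144 without at 31 days. The surface mean thus had changes with MEC1 of -0.57 and -0.56 and the endosomal mean of -1.58 and -1.47 at 21 and 31 days.

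The difference of the 2 means on an array is unaffected by a shift that is equal for all probes. Surface minus endosomal was -0.46, 0.14 and -0.02 with MEC1 at 21 days, against -1.06, -1.14 and -1.18 without. At 31 days it was -0.20, -0.97 and -0.25 with MEC1, against -1.18, -1.40 and -1.55 without. Every mouse with MEC1 was above every mouse without on the same day, and MEC1 31 d replicate 2 at -0.97 came closest. The change in this difference was 1.01 at 21 days and 0.90 at 31 days, and it kept its sign with quantile normalization (0.86 and 0.72), with the controls' level in the model (0.92 and 0.74) and with each array left out in turn (0.89 to 1.18 and 0.77 to 1.15). After each gene's change was taken relative to the median of clusters at its level, the surface receptors averaged -0.30 and the endosomal ones -1.21 at 21 days, and -0.0008 and -0.61 at 31 days. The sets were not uniform on this scale. Surface Tlr6 had -1.04 and -0.60, unlike Tlr1 (0.03 and 0.20), Tlr2 (-0.50 and 0.30) and Tlr4 (0.30 and 0.11). The endosomal values were -2.255 and -0.89 for Tlr7, -1.39 and -0.59 for Tlr8, -0.60 and -0.62 for Tlr9, and -0.58 and -0.36 for Tlr13. Cd14 (-0.85 and 0.17) and Ly96 (-1.31 and 0.33) are in neither mean. No p is given for these averages, since the genes were chosen with results of these data known.

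**Figure D3:**
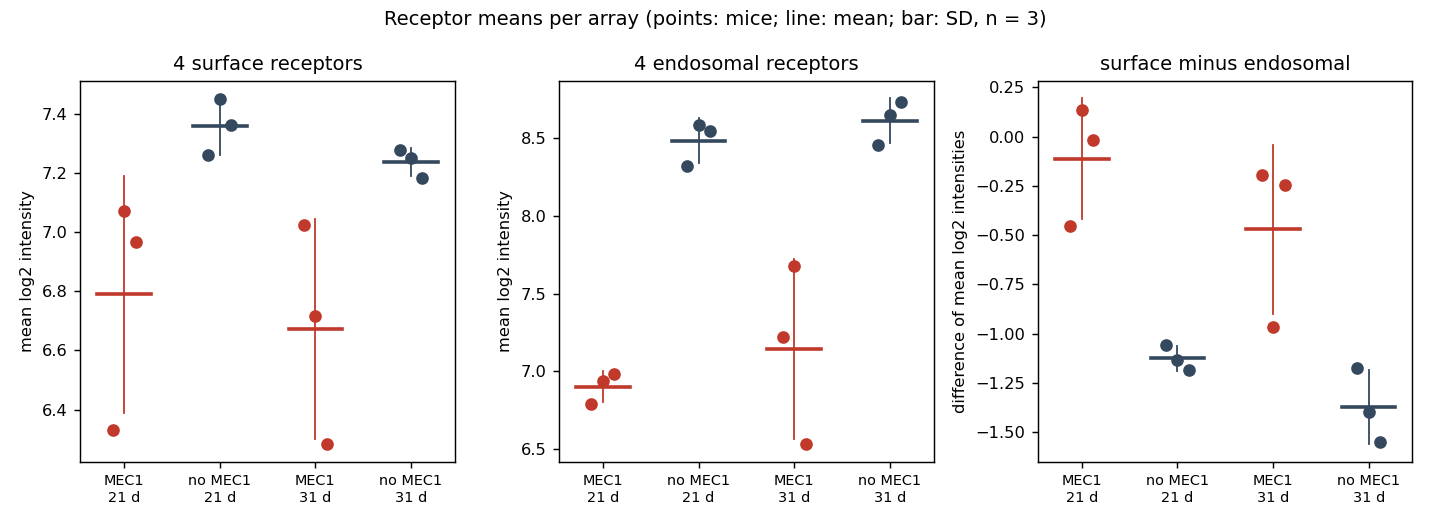
Mean log2 intensity of the 4 surface and the 4 endosomal receptors and their difference on each array (red, with MEC1; dark blue, without), with points for mice, lines for means and bars for the SD (n = 3). The difference lies between -0.97 and 0.14 with MEC1 and between -1.55 and -1.06 without.

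**Figure D4:**
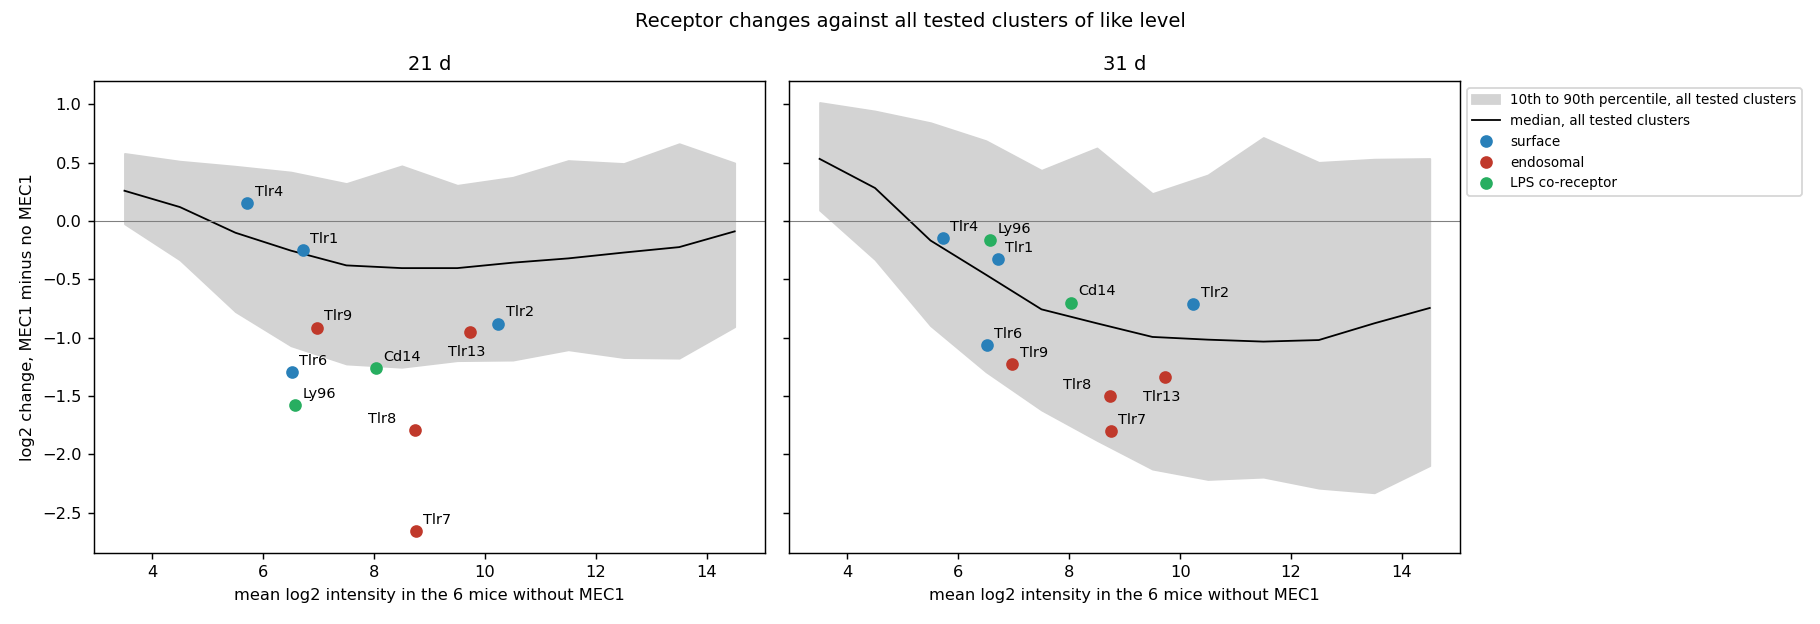
Log2 change with MEC1 of the 10 genes against their mean level in the 6 mice without MEC1, at 21 and 31 days, over the median (line) and the 10th to 90th percentile (grey) of all tested clusters by level. At 21 days Tlr7, Tlr8, Ly96 and Tlr6 lie below the grey band, with Cd14 on its edge, and at 31 days all 10 genes lie within it.

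The surroundings of the receptors were read from lists of pathway genes, whose counts stand beside 2.51% of all tested clusters called lower at 21 days and 21.1% at 31 days. These shares include many dim clusters and were not matched for level. The 4 other Toll-like receptor genes lay near the array medians: Tlr3, Tlr5, Tlr11 and Tlr12 had group means of 3.75 to 4.86. Only Tlr5, the flagellin receptor, was called, lower by a log2 change of -0.57 at 31 days (limma adjusted p = 0.0236), beside a median of 0.17 at its level. Tlr3, Tlr11 and Tlr12 had 31-day changes of 0.14, 0.33 and 0.35, which did not pass, beside medians of 0.39, 0.25 and 0.47. These 4 genes are in neither the surface nor the endosomal mean, so those means do not cover all receptors of either kind. Of 7 genes for receptor folding and trafficking, none passed at 21 days (limma, 2 at an unadjusted p under 0.05) and 4 fell at 31 days, with a median change of -1.14. Unc93b1, the carrier of endosomal receptors, fell by 1.96 (SE 0.377, adjusted p = 0.00312), to 9.15 with MEC1 against 11.11 without. The adaptor complex gene Ap3b1 (log2 change of -1.40), the chaperone gene Hsp90b1 (-1.21) and the cargo receptor gene Tmed7 (-1.14) also fell. Clusters at the levels of Unc93b1, Ap3b1, Hsp90b1 and Tmed7 had 31-day medians of -1.04, -1.06, -0.62 and -0.98. Of the clusters at their levels 14.5%, 34.6%, 32.4% and 43.4% had a more negative change, so that all 4, Unc93b1 included, lay inside the bulk. Hsp90b1 had 15.37, 14.75 and 13.39 with MEC1 at 31 days, the lowest being replicate 3. Its 21-day change was 0.44 and did not pass (limma adjusted p = 0.504).

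Of 9 tested genes for ligand processing and transport in endosomes, 3 fell at 21 days and 6 at 31 days, and none rose, against 2.51% and 21.1% of all clusters called lower. Pld4, an exonuclease that degrades single-stranded nucleic acids in endosomes, fell by 1.59 at 21 days and fell by 3.34 at 31 days (SE 0.329 each, limma adjusted p = 0.0292 and 0.000213). The nucleoside transporter gene Slc29a3 (-2.31), the protease gene Ctsb (-1.88) and the endosomal transporter gene Slc15a4 (-1.18) fell at 31 days. At their levels the 31-day medians were -0.75 for Pld4, -0.95 for Slc29a3, -0.65 for Ctsb and -0.93 for Slc15a4. On the LPS side, 3 of 5 tested genes fell at 31 days and 2 at 21 days. Cd180, a relative of Tlr4, fell by 1.41 at 21 days and fell by 2.50 at 31 days (SE 0.283 each, adjusted p = 0.0266 and 0.000374). Its partner Ly86 fell by 1.87 at 31 days, and the scavenger receptor gene Cd36 fell on both days, with log2 changes of -1.50 and -1.86. The 31-day medians at the levels of Cd180, Ly86 and Cd36 were -0.88, -1.04 and -0.45. The LPS delivery gene Lbp passed on neither day. Its log2 change was 1.33 at 21 days, with all mice with MEC1 above all without, and -0.45 at 31 days (limma adjusted p = 0.19 and 0.527).

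Downstream, 2 of 11 tested adaptor and proximal kinase genes fell at 21 days and 6 at 31 days, against 2.51% and 21.1% of all clusters called lower. Ticam2, which links Tlr4 to interferon signalling, fell on both days, with log2 changes of -1.39 and -1.76 (SE 0.271, limma adjusted p = 0.0243 and 0.00115), as did the kinase gene Irak2, with -1.39 and -1.44. Btk and Tab1, which take part in kinase signalling, fell at 31 days, with -1.18 and -1.06. The 31-day medians at their levels were -0.58 for Ticam2, -0.83 for Irak2, -0.93 for Btk and -0.63 for Tab1, and 37.0% of clusters at the level of Btk had a more negative change. The shared adaptor Myd88, named after its values were seen, did not pass on a single day, with log2 changes of 0.85 at 21 days and 0.34 at 31 days (adjusted p = 0.084 and 0.282), and rose by 0.60 over both days (SE 0.18, limma adjusted p = 0.0203). Among 11 downstream kinases and transcription factors 3 fell at 21 days and 7 at 31 days. Irf5, a transcription factor used by endosomal receptors, fell on both days, with log2 changes of -1.35 and -2.12 (SE 0.296, limma adjusted p = 0.0334 and 0.000752), and the kinase genes Ikbkb, Map3k8 and Mapk14 fell at 31 days, with -1.69, -1.66 and -1.20. Medians at the levels of Irf5, Ikbkb, Map3k8 and Mapk14 were -0.99, -0.98, -0.94 and -1.06 at 31 days.

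Of 12 tested negative regulators none passed at 21 days (limma, 3 at an unadjusted p under 0.05). The ubiquitin ligase gene Rnf216 (log2 change of -1.56) and the Toll-interacting protein gene Tollip (-1.16) fell at 31 days, and the deubiquitinase gene Otulin rose by 0.39 (limma adjusted p = 0.00336, 0.00504 and 0.0484). Genes that Toll-like receptor ligands induce moved both ways. Of 18 tested, 3 fell at 21 days, and at 31 days 7 rose and 5 fell, with a median of -0.02. The chemokine genes Ccl3, Ccl2 and Cxcl2 fell at 31 days, with log2 changes of -3.71, -2.84 and -1.83, and the cytokine gene Il1b rose by 2.03 (SE 0.206, adjusted p = 0.000246). Of all tested clusters 22.6% were called higher and 21.1% lower at 31 days, beside 7 and 5 of these 18 genes.

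**Figure D5:**
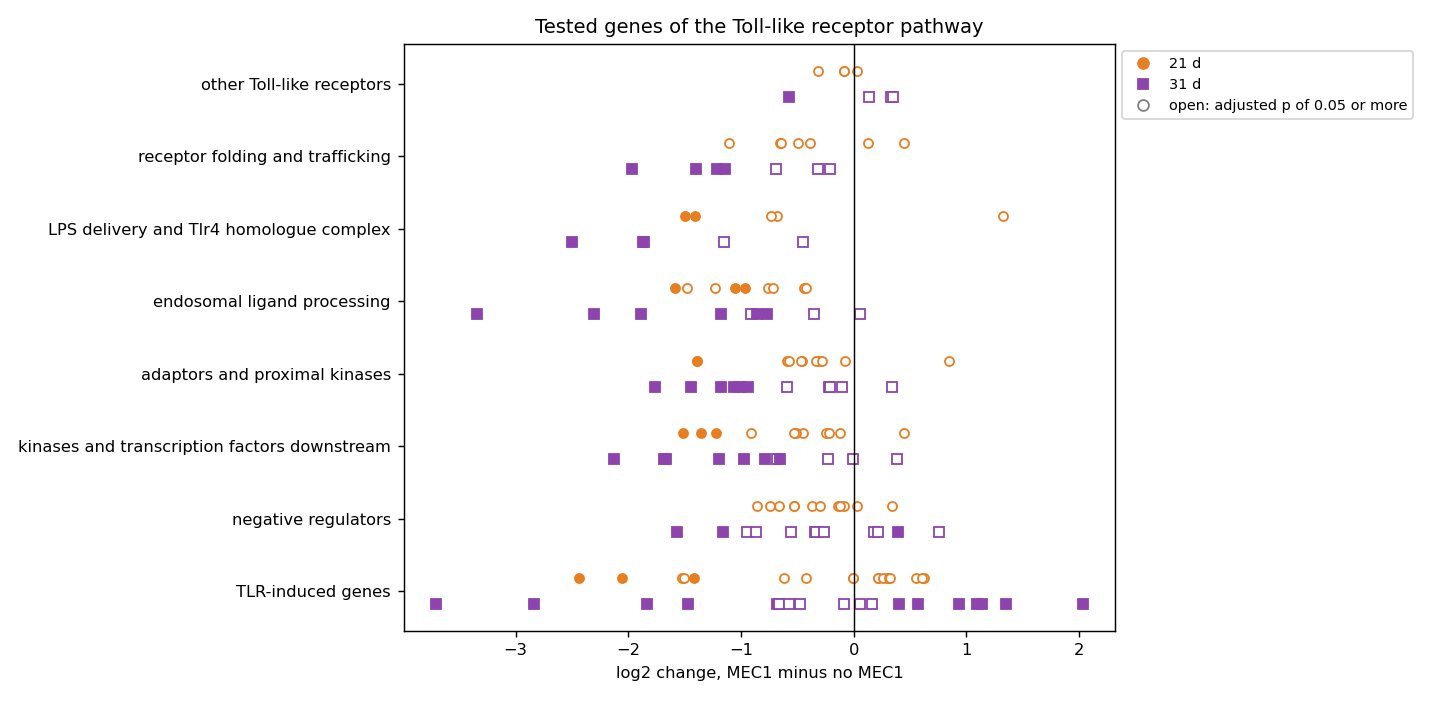
Log2 change with MEC1 of each tested gene in 8 lists of the Toll-like receptor pathway, at 21 days (circles) and 31 days (squares), filled for a limma adjusted p under 0.05. Filled symbols lie left of 0 in all lists but the negative regulators and the induced genes, which have some on both sides at 31 days.

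Markers of cell types moved with MEC1 too. Their counts stand beside 2.51% of all tested clusters called lower and 1.83% called higher at 21 days. At 31 days these shares were 21.1% and 22.6%. The shares of both days were not matched for level. All 10 monocyte and macrophage markers, the labelled cell type, were bright enough to be tested. Of them 1 fell at 21 days, and at 31 days 8 fell and 1 rose; their mean level per array was 9.79 to 11.22 with MEC1 and 11.83 to 11.94 without at 31 days, and 10.89 to 11.22 with MEC1 and 11.62 to 11.82 without at 21 days. Cd68 and Cx3cr1 fell at 31 days, with log2 changes of -2.49 and -2.27, beside -1.80 for Tlr7. All tested clusters with a level of 11 to 12 without MEC1, where the mean of this list lay, had a 31-day median of -1.03. Their 10th percentile was -2.20. Lyz2, a lysozyme gene, fell by 1.72, and Mertk, a receptor for dying cells, rose by 1.70. Of 7 tested dendritic cell markers 2 fell at 21 days and 4 at 31 days. Only 4 of the 7 had a negative change at 21 days (median of -0.47) and 5 at 31 days (median of -1.23). Siglech, a marker of plasmacytoid dendritic cells, which carry Tlr7 and Tlr9, was among those that fell. It had log2 changes of -1.25 and -2.45 (limma adjusted p = 0.0426 and 0.000506). All 8 genes of that list averaged 4.97 to 5.21 with MEC1 and 5.72 to 5.96 without at 21 days, and 4.66 to 4.95 with MEC1 and 5.79 to 6.14 without at 31 days.

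Among 5 tested B lineage markers 2 rose at 21 days and 4 at 31 days, the largest being Pax5 at 1.34 and 2.23. Of all tested clusters 1.83% and 22.6% were called higher on these days, and 2.51% and 21.1% lower. The median change of the B lineage markers was 0.38 at 21 days and 0.78 at 31 days. All tested clusters with a level of 4 to 5 without MEC1 had medians of 0.12 and 0.28 and 90th percentiles of 0.51 and 0.94. Over the 7 B lineage markers on the array, untested ones included, the mean level was 4.48 to 4.75 with MEC1 and 4.04 to 4.19 without at 21 days, and 4.77 to 5.26 with MEC1 and 4.06 to 4.12 without at 31 days. Neutrophil markers were bright in all groups, at 10.76 to 13.09 with MEC1 and 12.33 to 13.77 without; none of 10 passed at 21 days (limma, 1 at an unadjusted p under 0.05) and 5 fell at 31 days. All 6 basophil and mast cell markers fell at 31 days, and their mean level was 7.97 to 9.31 with MEC1 against 10.15 to 10.90 without on that day. Of 5 tested erythroid markers 3 fell at 21 days (median change of -2.87, all 5 at an unadjusted p under 0.05), when their mean level was 6.43 to 9.76 with MEC1 against 9.75 to 11.59 without. All 5 fell at 31 days (median of -4.74), when their mean level was 5.02 to 5.84 with MEC1 against 11.00 to 11.57 without. The part of these cell types in the receptor changes was not tested.

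As a description of pattern, Tlr7 and Tlr4 were the members with the most negative and the most positive change over both days, and each was compared with 13320 named genes over the 12 arrays. Tlr7 was most like Arhgap25, Pcmtd1 and Ssh2, with Pearson r of 0.961, 0.957 and 0.944, and among the members most like Tlr8 (r of 0.917). Tlr4 was most like Mpv17, Nudt18 and Tdrkh (r of 0.831, 0.810 and 0.808), and among the members most like Tlr1 (r of 0.393). The 12 points share the difference between arrays with and without MEC1, which enters each r.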

How the data were processed

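RNA of 12 mice was read on mouse whole-transcriptome arrays, 1 array per mouse. The deposited values are log2 intensities, which the authors made per transcript cluster; the submitters' processing notes name Affymetrix Expression Console and RMA, without version. Build and annotation are not given in the sources used here. Leaving out 6732 control features left 65956 clusters. The platform's gene table gave 1 symbol for 30604 of them, several for 2146 (not named here) and none for 33206; 827 symbols were updated through gene IDs. Tested were the 37240 clusters above the median of their own array in at least 3 arrays. limma 3.58.1 (R 4.3.3) fitted 4 group means with empirical Bayes moderation, with p-values two-sided and Benjamini-Hochberg adjusted, at a threshold of 0.05. The scripts were tested on simulated data. All members were named, and of each other list up to 4 called genes with the largest change at 31 days. Members, lists and alternatives were chosen with earlier results of these data known. Alternatives were the filter, quantile normalization, centring, array weights, moderation, the 6 arrays of a day alone, the hybridisation controls as a covariate, the replicate number as a block, the mean of a gene's clusters and leaving out each array. Replicates were separate mice, and their number limits the precision.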

Additional observations from a re-analysis of the deposited data

How the results depend on the processing

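Direction and call held for most member results; the exceptions follow, and the cause was not tested unless stated. The number of genes called was 3 at 21 days, 4 at 31 days and 8 over both days. It was 8 at 21 days with array weights, which also called 1 gene, Tlr2, as lower at 31 than at 21 days in mice without MEC1, and 1 without moderation. It was 7 at 31 days with arrays centred on their median. Quantile normalization gave 5 over both days. Quantile normalization that also omitted MEC1 31 d replicate 3 gave 3 over both days and 0 at 31 days (limma). When the level of the hybridisation controls entered the model, the counts were 0 at 21 days, 0 at 31 days and 0 over both days; groups accounted for 92.1% of the variance of that level. Leaving out 1 array gave 1 to 5 genes at 21 days, with 1 without the 21-day replicates 2 or 3 without MEC1 or without MEC1 21 d replicates 1 or 2, and 5 without MEC1 21 d replicate 3. At 31 days it gave 4 to 7 (7 without MEC1 21 d replicate 1) and over both days 7 to 8.

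Signs turned as follows. Covariate, 21 days: 0.93 for Tlr1 and 0.22 for Tlr2. Covariate, 31 days: Tlr1 1.76, Tlr2 1.23, Tlr4 0.0749, Tlr6 0.13, Tlr8 1.13, Tlr9 0.13, Tlr13 0.0317, Cd14 0.20 and Ly96 2.02, with Tlr7 at -1.06 (adjusted p = 0.817). Covariate, both days: Tlr1 1.34, Tlr2 0.72, Tlr8 0.41 and Ly96 0.83. None of these passed. Quantile normalization gave Tlr1 0.00597, 0.0774 and 0.0417 at 21 days, 31 days and over both, and Tlr4 0.0394 and Ly96 0.0289 at 31 days. Without MEC1 31 d replicate 3 it gave Tlr1 0.00591, 0.49 and 0.25, and Tlr2 0.0115, Tlr4 0.15 and Ly96 0.53 at 31 days. There the endosomal changes at 31 days were -1.04, -0.55, -0.69 and -0.55 for Tlr7, Tlr8, Tlr9 and Tlr13 (adjusted p = 0.0945, 0.0501, 0.126 and 0.21). Centring gave Tlr4 -0.0433 at 21 days and -0.31 over both days. Array weights gave Tlr1 0.15 and 0.0581 at 31 days and over both, and Ly96 0.20 at 31 days. Leaving out 1 array spanned -0.0567 to 0.31, -0.28 to 0.035 and -0.10 to 0.10 for Tlr4 at 21 days, 31 days and over both, -0.60 to 0.0433 for Tlr1 and -0.40 to 0.20 for Ly96 at 31 days.

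With the replicate block the fit gave 3, 4 and 8 genes called at 21 days, 31 days and over both, as without the block. Same-numbered mice had correlations of their deviations of 0.36, -0.17 and 0.42 at 21 days, which were mixed, and of -0.01, 0.16 and 0.02 at 31 days. The labels give the numbers to different mice, and no call of the 10 genes changed under the block. Members have 1 cluster each, so that averaging clusters changed none of their values. Genes whose level lies near the array medians, such as Tlr3, Tlr11 and Tlr12, have little room to fall.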

Other observations

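Tlr7, Tlr8 and Tlr13 lie on the X chromosome, which makes 3 of the 4 endosomal receptors described here X-linked. For the 1126 tested clusters assigned to the X chromosome the median change with MEC1 was 0.14 at 21 days and 0.18 at 31 days. It was -0.01 and -0.13 for 18107 tested clusters assigned to other chromosomes. Of the X-linked clusters 1.69% were called lower at 21 days and 17.7% at 31 days, against 3.39% and 29.9% of the others (limma). These clusters were not matched for level, with which the changes varied, so their medians do not describe clusters as bright as the 3 receptors. Xist, the RNA that coats the inactive X chromosome of female cells, stood at 5.49, 13.49 and 10.61 in mice with MEC1 at 31 days, against 15.18, 15.75 and 15.54 without, and at 14.33, 15.06 and 15.14 with MEC1 at 21 days, against 16.17, 15.43 and 15.53 without. The mouse at 5.49 had 6.68 for Tlr7, 7.51 for Tlr8 and 8.40 for Tlr13, which was the middle value of its group for each. The labels used here give no sex, and the part of X dosage in the receptor values was not tested.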
